A study of Mus musculus with 6 samples.

Results

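The 40 genes described here encode mitotic cyclins and kinases, the parts of the spindle, centromere and kinetochore, the machinery of anaphase and cytokinesis, and the proliferation antigen Ki-67. They were listed by name as mitotic and G2/M genes, with earlier results of these data known, and were looked up by symbol among the 24067 genes of the count table. All 40 were found, and all 40 were among the 15903 genes that passed the filter on low counts. Their counts per library lay between 99 (Mybl2) and 15414 (Mki67).

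RNA-seq gene counts came from whole tongues, tumour included, of C57BL/6 mice of about 34 weeks. One group of 3 libraries is labelled HuR knockout (KO) and the other, also of 3, wild type (WT). Mice of both groups had received 4-nitroquinoline 1-oxide (4NQO), a DNA-damaging oral carcinogen, for 16 weeks and were then kept for 12 weeks while tongue tumours formed, so no tongue without carcinogen is among them. The labels give the genotypes as Knock-out and Wild-Type only, with no allele, promoter or Cre driver, so which cells were meant to lack HuR is not known from them. HuR, the product of Elavl1, is an RNA-binding protein that recognises AU-rich stretches of messages. The design sets tongues labelled as lacking HuR against those labelled as having it, all after carcinogen.

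Entry into mitosis is driven by Cdk1 bound to cyclins A and B, with Plk1 and the Aurora kinases acting on centrosomes, spindle and chromosomes. The spindle checkpoint holds the anaphase-promoting complex in check until kinetochores are attached, after which Cdc20 directs the breakdown of cyclin B and securin, separase opens cohesin, and the midzone builds the cleavage furrow. Most of these genes are transcribed late in the cycle by B-Myb and Foxm1 together with the MuvB complex, and the DREAM complex represses them in resting cells. In normal tongue epithelium the dividing cells lie in the basal and lowest suprabasal layers, whereas mature muscle fibres, which make up most of the organ, do not divide. In human cells HuR is known to bind the messenger RNAs of cyclin A2 and cyclin B1.

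Total gene counts ranged from 29543352 to 51520707 per library. Elavl1 stood at 65.00, 59.3 and 78.4 CPM in the KO-labelled libraries, against 61.7, 55.8 and 47.95 CPM in the WT-labelled libraries, and the groups overlapped (log2 fold change 0.29 ± 0.15, edgeR adjusted p = 0.180; 2-sided exact permutation p = 0.2, where 3 against 3 cannot go below 0.1). Because the targeted transcript was not lower under the label KO, libraries are called KO-labelled and WT-labelled throughout, and each direction is one between labels. Keratinocyte and muscle markers were both abundant in every library, but their balance differed: 12 basal keratinocyte genes summed to 14530, 15610 and 15980 CPM in the KO-labelled and 13340, 8778 and 7684 CPM in the WT-labelled libraries, and 15 fast muscle genes to 42000, 44690 and 59710 against 74120, 107300 and 137200 CPM. WT replicate 1 stood nearest to the KO-labelled libraries on both sums. By Xist and Y-linked counts, KO replicates 2 and 3 came from females and the other 4 libraries from males, so sex is unevenly spread over the labels.

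Most transcripts of mitosis had higher mean levels in the KO-labelled tongues, but none of the 40 genes passed the test. Summed over the 40 genes, levels were 1589, 1656 and 1894 CPM in KO replicates 1, 2 and 3, against 1655, 1158 and 1264 CPM in WT replicates 1, 2 and 3 (means 1713 ± 160 and 1359 ± 262, SD, n = 3 each). WT replicate 1 lay inside the range of the KO-labelled libraries, and WT replicates 2 and 3 lay below all of them. CPM here are counts scaled to 1e+06 per TMM-adjusted library. The median log2 fold change, labelled KO over labelled WT, was 0.40 for the 40 genes (a fold of 1.32), beside 0.02 for all 15903 genes tested. It ran from −0.09 for Cenpf to 1.16 for Mybl2, and 39 of 40 genes (97.5%) lay above 0, where 51.3% of all genes did. In bulk tissue, more or fewer dividing cells and more or less RNA per dividing cell cannot be told apart.

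At an edgeR adjusted p below 0.05, 0 of the 40 genes were higher and 0 were lower, while 4.81% of all genes tested were higher and 7.43% lower. The smallest adjusted p was 0.0544, for Mybl2. At an unadjusted p below 0.05, 15 of 40 genes (37.5%) were higher and 0 were lower, against 18.2% and 20.3% of all genes. DESeq2 on the same counts put 7 of the 40 genes (Cdk1, Mybl2, Melk, Bub1, Birc5, Cdca8 and Ndc80) higher and 0 lower, where it called 12.1% of all genes higher and 15.6% lower. With limma-voom 1 gene (Mybl2) was higher, beside 6.17% of all genes, and with no low-count filter 1 (Mybl2), beside 4.18%. None was higher with DESeq2's size factors in edgeR (4.79% of all genes), with library size alone (2.55%) or with a minimum of 1 CPM in 3 libraries (5.73%). The 3 KO-labelled values lay above all 3 WT-labelled values for 10 genes (25%), Ccna2, Cdk1, Mybl2, Melk, Birc5, Cdca8, Ndc80, Kif11, Prc1 and Espl1. That share is close to the 22.0% found over all genes tested. The 40 genes share their libraries and cell cycle phase, so their counts are not independent of each other.

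**Figure D1:**
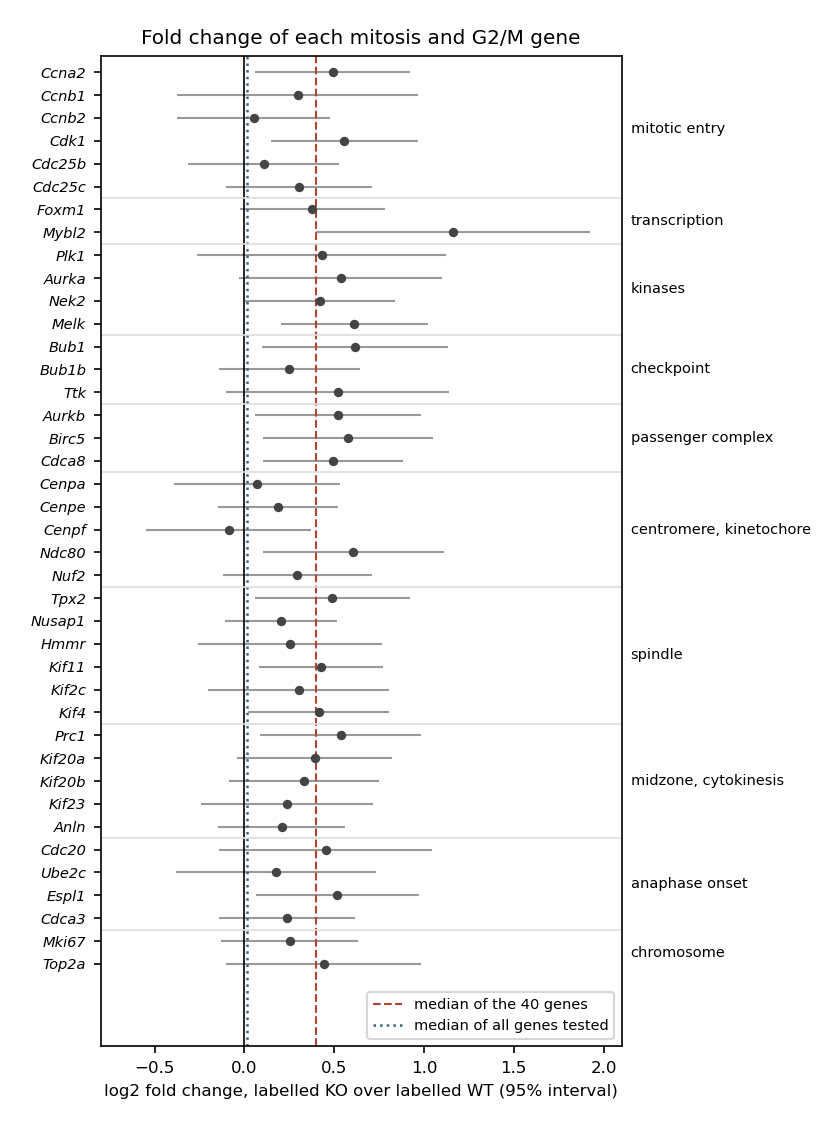
Log2 fold change (x axis, labelled KO over labelled WT) of each of the 40 genes, grouped by role; points are edgeR estimates, lines their 95% intervals, the dashed line the median of the 40 genes and the dotted line the median of all genes tested. All points but that of Cenpf lie right of 0, and Mybl2 lies farthest right at 1.16.

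The difference between the labels lay mainly in WT replicates 2 and 3, which were low, and KO replicate 3, which was high. The median deviation of the 40 genes from their mean over the 6 libraries, in log2, was 0.06, 0.14 and 0.39 in KO replicates 1, 2 and 3. In WT replicates 1, 2 and 3 it was 0.12, −0.42 and −0.31. WT replicate 2 was below all 3 KO-labelled libraries for 37 of the 40 genes and WT replicate 3 for 34, and both were so for 32. WT replicate 1 was below all 3 KO-labelled libraries for 11 genes only, above at least one of them for 29, and the highest of the WT-labelled libraries for 38. For Cdc25b, Nuf2 and Cdca3 it was the highest library of all. Among KO-labelled libraries, replicate 3 held the highest value of all 6 for 31 genes. The spread within a group, as the SD in percent of the mean, had a median over the genes of 12.0% among KO-labelled and 21.5% among WT-labelled libraries.

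**Figure D2:**
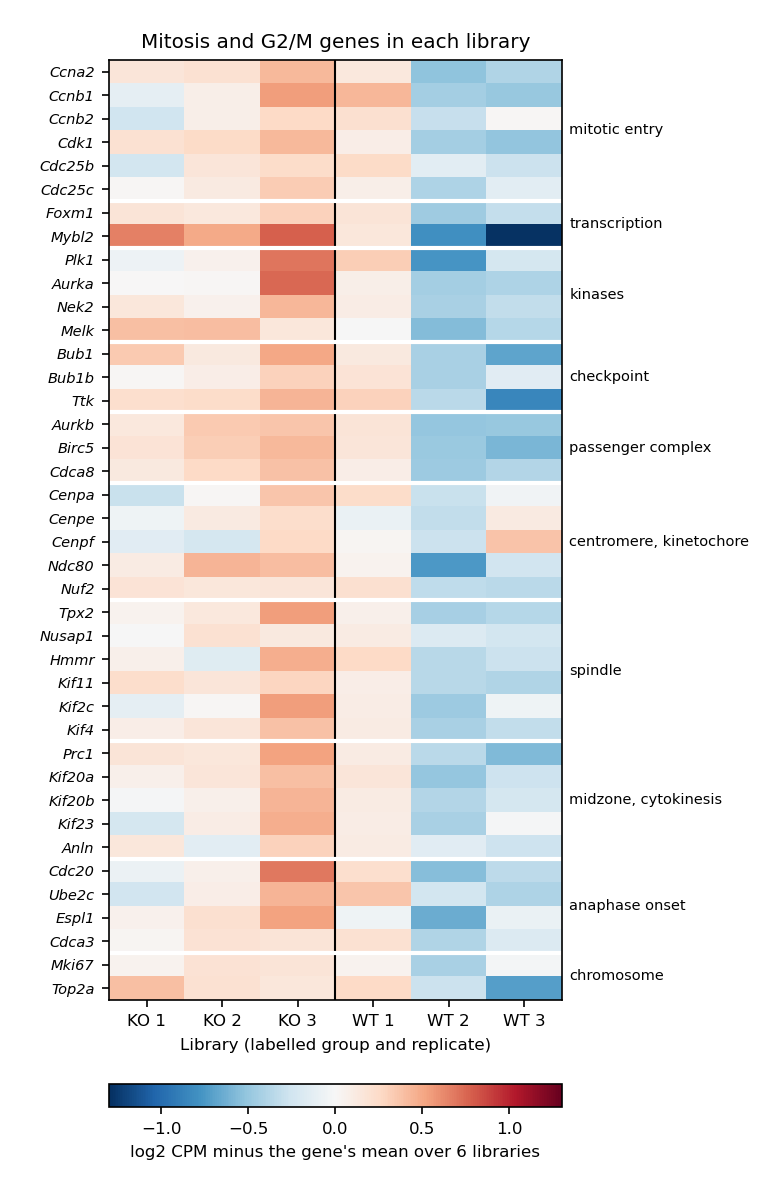
Level of each of the 40 genes (rows, by role) in each library (columns), as log2 CPM minus the gene's mean over the 6 libraries. KO replicate 3 is the highest for 31 genes, WT replicate 1 resembles the KO-labelled columns, and WT replicates 2 and 3 hold the lowest value for 25 and 14 genes.

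Promoter sequences are shown for 6 genes because late cell cycle genes are known to share short elements near their start sites, and the 6 differ in which of these they hold. In RefSeq (GRCm38.p6), windows from 250 bases before to 50 bases after the start were matched for 34 of the 40 genes; Ccna2, Cdc25c, Foxm1, Aurkb, Tpx2 and Kif20a had none. Each window was searched on both strands for the cell cycle genes homology region (CHR, TTTGAA or TTCGAA), the contact of MuvB, for the CCAAT box, the contact of NF-Y, and for an E2F-type motif (in letters TTTGGCG, or with other inner bases as TTTCCCG, as TTTGCCG or as TTTCGCG) that was added after the data had been seen. TTCGAA, which reads alike on both strands, was counted once, and motifs of different kinds overlapped in 1 of the 35 windows (Prc1 has a pair). Ccnb2 (chr9:70421505-70421804, minus strand), Cdk1 (chr10:69352863-69353162, minus strand) and Cdc20 (chr4:118437294-118437593, minus strand) hold both CHR and CCAAT. In the exact letters searched, Ccnb1 (chr13:100786437-100786736, minus strand) holds CCAAT without CHR, and Melk (chr4:44300667-44300966, plus strand) only the E2F-type motif. Mybl2 (chr2:163054385-163054684, plus strand) holds none of the 3 in those letters. The Mybl2 window does hold CTTGGCG, which differs from TTTGGCG only in its first letter and was not counted. Capitals mark the motifs, in the letters of the gene's strand, so that a CCAAT box on the other strand reads ATTGG.
Ccnb2: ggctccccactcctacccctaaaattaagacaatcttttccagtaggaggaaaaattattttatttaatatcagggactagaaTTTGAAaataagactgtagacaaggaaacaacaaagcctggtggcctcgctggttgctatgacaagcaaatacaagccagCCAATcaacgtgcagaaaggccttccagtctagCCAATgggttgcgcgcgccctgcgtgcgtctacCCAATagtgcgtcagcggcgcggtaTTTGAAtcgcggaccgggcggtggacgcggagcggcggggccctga
Cdk1: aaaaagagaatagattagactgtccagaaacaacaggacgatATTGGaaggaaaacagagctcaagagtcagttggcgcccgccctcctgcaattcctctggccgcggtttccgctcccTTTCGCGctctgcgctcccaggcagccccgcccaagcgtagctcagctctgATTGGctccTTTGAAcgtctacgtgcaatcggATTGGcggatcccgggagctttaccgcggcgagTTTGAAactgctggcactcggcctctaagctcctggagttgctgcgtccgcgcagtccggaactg
Cdc20: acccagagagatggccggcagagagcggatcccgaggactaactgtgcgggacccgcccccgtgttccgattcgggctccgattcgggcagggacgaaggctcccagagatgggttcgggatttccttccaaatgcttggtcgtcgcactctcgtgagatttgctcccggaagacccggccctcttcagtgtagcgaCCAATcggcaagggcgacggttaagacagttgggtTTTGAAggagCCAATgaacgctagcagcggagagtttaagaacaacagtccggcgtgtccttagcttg
Ccnb1: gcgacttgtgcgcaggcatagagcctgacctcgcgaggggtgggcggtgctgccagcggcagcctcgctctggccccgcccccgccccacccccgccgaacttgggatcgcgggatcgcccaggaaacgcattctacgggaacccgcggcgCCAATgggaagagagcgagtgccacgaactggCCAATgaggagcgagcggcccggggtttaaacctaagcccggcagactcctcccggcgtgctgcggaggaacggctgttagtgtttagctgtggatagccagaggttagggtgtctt
Melk: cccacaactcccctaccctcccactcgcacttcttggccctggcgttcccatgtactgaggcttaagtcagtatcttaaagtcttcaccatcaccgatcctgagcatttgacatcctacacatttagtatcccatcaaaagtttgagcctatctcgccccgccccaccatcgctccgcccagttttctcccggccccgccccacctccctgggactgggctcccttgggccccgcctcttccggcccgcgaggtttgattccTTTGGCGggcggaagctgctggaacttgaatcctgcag
Mybl2: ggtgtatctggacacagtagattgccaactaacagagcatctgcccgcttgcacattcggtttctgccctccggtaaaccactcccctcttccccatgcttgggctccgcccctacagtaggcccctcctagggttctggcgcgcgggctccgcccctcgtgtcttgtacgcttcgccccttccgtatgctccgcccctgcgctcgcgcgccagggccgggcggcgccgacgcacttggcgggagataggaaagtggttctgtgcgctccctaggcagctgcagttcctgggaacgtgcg

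A CHR was present in 26 of the 34 genes with a window (76.5%), against 21.7% of the 27025 genes in the promoter table and 16.5% of the tested genes it holds. CCAAT was present in 25 genes (73.5%), against 41.1% and 41.8%. Both motifs were present in 22 genes (64.7%), against 8.61% and 6.80%. The E2F-type motif, in the exact letters searched, was present in 5 genes (14.7%), against 7.65% and 11.6%. In Cdk1 a CHR began 15 bases before the start site, in Cdc20 18 bases before it and in Ccnb2 4 bases after it. Ndc80, Kif2c, Kif20b and Anln hold a CHR without CCAAT. The genes with a window but no CHR in the letters searched were Ccnb1, Mybl2, Nek2, Melk, Birc5, Cenpe, Nuf2 and Nusap1. Other letters were not searched, so a CHR in another form would have been missed. These matches describe letters in a window; binding was not measured.

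Among the genes of mitotic entry, Cdk1 and its partner cyclin A2 showed no overlap between the labels, whereas the B cyclins did overlap. Such a lack of overlap, with KO-labelled values higher, was found for 22.0% of all genes tested. Cdk1, the kinase that starts mitosis (identifier 12534, chromosome 10, 69335146 to 69352912 in GRCm38), stood at 38.4, 39.6 and 44.6 CPM in the KO-labelled libraries, against 35.5, 24.5 and 23.4 CPM in the WT-labelled libraries. Every KO-labelled value exceeded every WT-labelled one, and the log2 fold change came to 0.56 ± 0.18 (edgeR adjusted p = 0.0677). Ccna2, cyclin A2, stood at 41.5, 42.8 and 49.9 CPM in the KO-labelled libraries, against 41.1, 25.9 and 28.5 CPM in the WT-labelled libraries. The lowest KO-labelled value and WT replicate 1 were almost equal, and the log2 fold change came to 0.49 ± 0.19 (edgeR adjusted p = 0.0991). Ccnb1, cyclin B1, stood at 9.54, 10.8 and 15.04 CPM in the KO-labelled libraries, against 13.96, 7.59 and 7.31 CPM in the WT-labelled libraries. WT replicate 1 was above KO replicates 1 and 2, and the log2 fold change came to 0.30 ± 0.29 (edgeR adjusted p = 0.467). Ccnb2, cyclin B2, stood at 19.2, 24.2 and 27.6 CPM in the KO-labelled libraries, against 26.6, 18.7 and 23.3 CPM in the WT-labelled libraries. The groups were interleaved, with a log2 fold change of 0.05 ± 0.18 (edgeR adjusted p = 0.857). The phosphatases that activate Cdk1 had log2 fold changes of 0.11 (Cdc25b) and 0.30 (Cdc25c), and both overlapped between the labels. Of the promoters printed above, those of Cdk1, whose groups did not overlap, and Ccnb2, whose groups did, both hold CHR and CCAAT.

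Of the transcription factors, Mybl2 had the largest log2 fold change of the 40 genes. Mybl2, which encodes B-Myb (identifier 17865, chromosome 2, 163054327 to 163084688), stood at 14.9, 13.3 and 16.1 CPM in the KO-labelled libraries, against 10.5, 5.42 and 3.87 CPM in the WT-labelled libraries. WT replicate 3 rests on 99 counts. The groups did not overlap, with means of 14.8 ± 1.400 CPM in the KO-labelled and 6.58 ± 3.45 CPM in the WT-labelled libraries (SD, n = 3 each) and a log2 fold change of 1.16 ± 0.33 (fold 2.24, 95% interval 1.32 to 3.79, edgeR adjusted p = 0.0544). Foxm1, the forkhead factor of the late cell cycle, stood at 31.7, 31.1 and 34.7 CPM in the KO-labelled libraries, against 31.8, 20.5 and 22.9 CPM in the WT-labelled libraries. WT replicate 1 lay among the KO-labelled values, and the log2 fold change came to 0.38 ± 0.17 (edgeR adjusted p = 0.15).

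**Figure D3:**
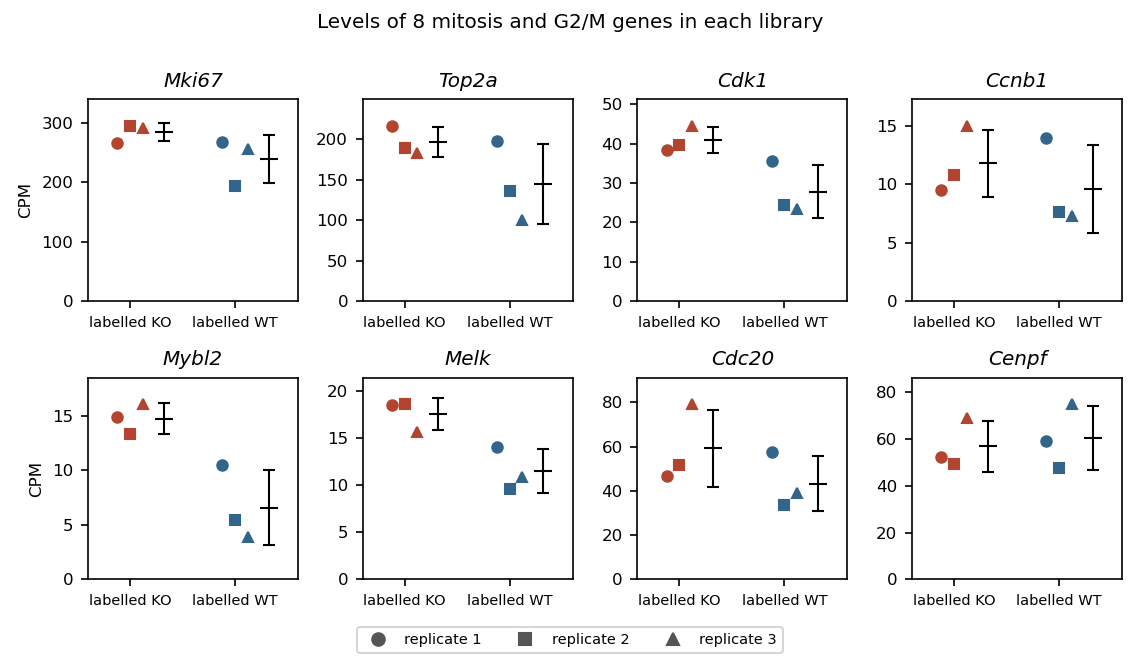
CPM (y axis, starting at 0) of 8 of the genes in each library; coloured symbols are libraries by replicate, labelled KO left of labelled WT, and black bars are group means with their SD (n = 3 each). For Cdk1, Mybl2 and Melk the KO-labelled points lie above all WT-labelled points, and for the other genes shown WT replicate 1 lies among the KO-labelled points.

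The kinases of centrosome and spindle differed in which library was highest. Melk, a kinase abundant in dividing cells (identifier 17279, chromosome 4, 44300909 to 44364675), stood at 18.5, 18.6 and 15.6 CPM in the KO-labelled libraries, against 14.1, 9.57 and 10.9 CPM in the WT-labelled libraries. The groups did not overlap, and the log2 fold change came to 0.61 ± 0.18 (edgeR adjusted p = 0.0566); it is one of 4 genes whose highest value was in KO replicate 2. Plk1, the polo-like kinase of mitotic entry and exit, stood at 19.5, 21.4 and 33.1 CPM in the KO-labelled libraries, against 25.6, 12.01 and 17.5 CPM in the WT-labelled libraries. KO replicate 3 stood apart from KO replicates 1 and 2, WT replicate 1 lay between them, and the log2 fold change came to 0.43 ± 0.30 (edgeR adjusted p = 0.313). Aurka, the Aurora kinase of centrosomes and spindle poles, stood at 16.4, 16.6 and 27.6 CPM in the KO-labelled libraries, against 17.3, 12.1 and 12.4 CPM in the WT-labelled libraries. Again KO replicate 3 was far above the rest, and the log2 fold change came to 0.54 ± 0.24 (edgeR adjusted p = 0.144). Nek2, a centrosome kinase, had a log2 fold change of 0.42 ± 0.18 and overlapped through WT replicate 1.

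Bub1, a kinase of the spindle checkpoint, stood at 16.4, 14.1 and 18.4 CPM in the KO-labelled libraries, against 14.2, 9.67 and 8.01 CPM in the WT-labelled libraries. KO replicate 2 and WT replicate 1 were almost equal, so the groups overlapped, and the log2 fold change came to 0.62 ± 0.22 (edgeR adjusted p = 0.0891). Bub1b, which encodes the checkpoint protein BubR1, stood at 35.1, 36.9 and 42.9 CPM in the KO-labelled libraries, against 39.2, 26.02 and 31.4 CPM in the WT-labelled libraries. WT replicate 1 exceeded KO replicates 1 and 2, and the log2 fold change came to 0.25 ± 0.17 (edgeR adjusted p = 0.299). Ttk, the checkpoint kinase Mps1, had a log2 fold change of 0.52 ± 0.27.

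The 3 genes of the chromosomal passenger complex, which corrects faulty kinetochore attachments, had log2 fold changes close to each other. Cdca8, which encodes borealin, stood at 32.5, 35.6 and 38.6 CPM in the KO-labelled libraries, against 31.6, 21.4 and 22.8 CPM in the WT-labelled libraries. Birc5, survivin, stood at 29.3, 32.4 and 34.8 CPM in the KO-labelled libraries, against 28.9, 18.6 and 17.2 CPM in the WT-labelled libraries. Neither gene overlapped between the labels, and the log2 fold changes were 0.49 ± 0.17 (edgeR adjusted p = 0.0793) and 0.58 ± 0.20 (edgeR adjusted p = 0.0847). Aurkb, the kinase of the complex, stood at 23.1, 26.5 and 26.9 CPM in the KO-labelled libraries, against 23.6, 14.8 and 14.9 CPM in the WT-labelled libraries. Here WT replicate 1 passed KO replicate 1 by a small margin, and the log2 fold change came to 0.52 ± 0.20 (edgeR adjusted p = 0.101).

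Centromere and kinetochore genes had the lowest median log2 fold change of any role, 0.19, and included the one gene below 0. Ndc80, a microtubule anchor of the outer kinetochore, stood at 10.7, 13.4 and 13.1 CPM in the KO-labelled libraries, against 10.2, 5.92 and 8.36 CPM in the WT-labelled libraries. The groups did not overlap, and the log2 fold change came to 0.61 ± 0.22 (edgeR adjusted p = 0.0879). Its complex partner Nuf2 had a log2 fold change of 0.29 ± 0.18 with WT replicate 1 highest. Cenpa, the histone variant of centromeres, stood at 22.5, 27.9 and 35.4 CPM in the KO-labelled libraries, against 32.5, 22.6 and 26.6 CPM in the WT-labelled libraries. The groups were interleaved, and KO replicate 1 held the lowest value of all 6 (log2 fold change 0.07 ± 0.20, edgeR adjusted p = 0.816). Cenpf, a large kinetochore protein named here because it alone lay below 0, stood at 52.2, 49.4 and 69.2 CPM in the KO-labelled libraries, against 59.1, 47.6 and 75.1 CPM in the WT-labelled libraries. WT replicate 3 was the highest of all libraries, and the log2 fold change came to -0.09 ± 0.20 (edgeR adjusted p = 0.76), above 0 at 0.08 when levels were scaled by library size alone. Cenpe, the kinetochore kinesin, had a log2 fold change of 0.19 ± 0.15.

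Spindle genes had a median log2 fold change of 0.36. Kif11, the kinesin Eg5 that pushes spindle poles apart, stood at 55.04, 52.5 and 57.2 CPM in the KO-labelled libraries, against 49.8, 36.8 and 35.9 CPM in the WT-labelled libraries. The groups did not overlap, and the log2 fold change came to 0.43 ± 0.15 (edgeR adjusted p = 0.0821). Hmmr, a spindle pole protein, stood at 21.7, 18.5 and 28.7 CPM in the KO-labelled libraries, against 24.7, 16.1 and 17.00 CPM in the WT-labelled libraries. KO replicate 2 was below WT replicate 1, and the log2 fold change came to 0.26 ± 0.22 (edgeR adjusted p = 0.412). The log2 fold changes of the others were 0.49 for Tpx2, which activates Aurora A, 0.41 for the chromokinesin Kif4, 0.30 for the microtubule depolymerase Kif2c and 0.20 for the microtubule binder Nusap1. All of these overlapped between the labels.

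For the midzone and cytokinesis, Prc1, which bundles midzone microtubules, stood at 57.03, 56.3 and 73.1 CPM in the KO-labelled libraries, against 54.7, 39.8 and 34.2 CPM in the WT-labelled libraries. The groups did not overlap, and the log2 fold change came to 0.54 ± 0.19 (edgeR adjusted p = 0.0892). Kif23, the kinesin of centralspindlin, stood at 30.6, 38.2 and 49.6 CPM in the KO-labelled libraries, against 38.3, 26.8 and 35.5 CPM in the WT-labelled libraries. The groups were interleaved, and the log2 fold change came to 0.24 ± 0.21 (edgeR adjusted p = 0.415). The midzone kinesins Kif20a and Kif20b had log2 fold changes of 0.39 and 0.33, and the furrow scaffold Anln had one of 0.21.

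At anaphase onset, Espl1, the separase that cuts cohesin, stood at 24.5, 27.2 and 33.9 CPM in the KO-labelled libraries, against 22.6, 15.1 and 22.2 CPM in the WT-labelled libraries. The groups did not overlap, and the log2 fold change came to 0.52 ± 0.20 (edgeR adjusted p = 0.0975). Cdc20, the activator of the anaphase-promoting complex (identifier 107995, chromosome 4, 118432901 to 118437343), stood at 46.7, 51.6 and 79.3 CPM in the KO-labelled libraries, against 57.4, 33.6 and 38.9 CPM in the WT-labelled libraries. KO replicate 3 was far above the rest, WT replicate 1 was above KO replicates 1 and 2, and the log2 fold change came to 0.45 ± 0.26 (edgeR adjusted p = 0.222). Ube2c, the complex's ubiquitin-conjugating enzyme, stood at 26.5, 33.5 and 42.8 CPM in the KO-labelled libraries, against 40.6, 26.6 and 23.8 CPM in the WT-labelled libraries. The groups were interleaved, with a log2 fold change of 0.18 ± 0.24 (edgeR adjusted p = 0.61). Cdca3, itself broken down through this complex, had a log2 fold change of 0.23 ± 0.16.

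Mki67, which encodes Ki-67, the coat protein of mitotic chromosomes used to count cycling cells (identifier 17345, chromosome 7, 135689784 to 135716450), stood at 267, 296 and 291 CPM in the KO-labelled libraries, against 268, 193 and 256 CPM in the WT-labelled libraries. WT replicate 1 was level with KO replicate 1 and only WT replicate 2 lay far below. The log2 fold change was 0.25 ± 0.16, a fold whose 95% interval ran from 0.915 to 1.55 (edgeR adjusted p = 0.281). Top2a, the topoisomerase that untangles sister chromatids, stood at 217, 189.9 and 183 CPM in the KO-labelled libraries, against 198, 136 and 100.3 CPM in the WT-labelled libraries. Its order among KO-labelled libraries was the reverse of that of Aurka and Cdc20, with KO replicate 1 highest and KO replicate 3 lowest, and the log2 fold change came to 0.44 ± 0.23 (edgeR adjusted p = 0.198). Per kilobase of exon, the levels in KO-labelled libraries were highest for Cdc20 (31.7 CPM per kb), Mki67 (28.3) and Top2a (21.8) and lowest for Ndc80 (1.91).

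Another 85 genes of mitosis, none of them among the 40, also lay mostly above 0. Of these, 82 did so, with a median log2 fold change of 0.47. At an unadjusted p below 0.05, 39 were higher and 1 lower (45.9% and 1.18%, beside 18.2% and 20.3% of all genes). DESeq2 had 21 higher and 1 lower, where it called 12.1% of all genes higher and 15.6% lower. At an edgeR adjusted p below 0.05, 1 rose and 0 fell, where 4.81% of all genes rose and 7.43% fell. The gene that rose was Trip13, an ATPase that resets checkpoint proteins, at 11.7, 10.8 and 12.5 CPM in the KO-labelled libraries, against 8.43, 4.57 and 4.03 CPM in the WT-labelled libraries (log2 fold change 1.04 ± 0.28, edgeR adjusted p = 0.0487). The next smallest adjusted p belonged to Stil, which is needed to duplicate centrioles (log2 fold change 1.01 ± 0.28, edgeR adjusted p = 0.0513), and to the kinetochore protein Zwint (0.75 ± 0.21, edgeR adjusted p = 0.0514). Of 16 subunits and partners of the anaphase-promoting complex, 0 passed in either direction and 12 lay below 0, with 2 lower and 0 higher at an unadjusted p below 0.05 and 1 lower and 0 higher by DESeq2. Anapc5 had the largest difference, a log2 fold change of -0.66 ± 0.19 (edgeR adjusted p = 0.0566), from 307, 327 and 392 CPM in the KO-labelled libraries, against 449.9, 528 and 642 CPM in the WT-labelled libraries.

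Genes of the preceding step, G1/S and DNA replication, stood farther apart between the labels. All 18 lay above 0 with a median log2 fold change of 0.85. At an unadjusted p below 0.05, 17 were higher and 0 lower, beside 18.2% and 20.3% of all genes. DESeq2 had 13 higher and 0 lower, where it called 12.1% of all genes higher and 15.6% lower. At an edgeR adjusted p below 0.05, 3 rose and 0 fell, where 4.81% of all genes rose and 7.43% fell. The 3 were Uhrf1, which maintains DNA methylation after replication (1.21 ± 0.29, edgeR adjusted p = 0.042), the replication clamp Pcna (0.62 ± 0.15, edgeR adjusted p = 0.0444) and Rrm2, a ribonucleotide reductase subunit (1.01 ± 0.27, edgeR adjusted p = 0.0483). Cdc6, which loads the replicative helicase, had the largest log2 fold change, 1.47 ± 0.41 (edgeR adjusted p = 0.0515). The summed CPM of the 40 mitotic genes over that of the 18 G1/S genes was 2.75, 3.27 and 3.43 in KO replicates 1, 2 and 3, against 3.84, 4.51 and 6.51 in WT replicates 1, 2 and 3. Every KO-labelled ratio lay below every WT-labelled one. The ratio was not tested.

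Of the genes that restrain the G2/M step or answer to p53, 13 were tested, and Rprm did not pass the filter. DESeq2 had 6 of the 13 higher and 2 lower, beside 12.1% and 15.6% of all genes. At an edgeR adjusted p below 0.05, 3 rose and 1 fell (23.1% and 7.69%, beside 4.81% and 7.43% of all genes). Those that rose were Plk3 (0.99 ± 0.19, edgeR adjusted p = 0.0327) and Plk2 (0.67 ± 0.17, edgeR adjusted p = 0.0467), stress-responsive polo-like kinases, and the antiproliferative gene Btg2 (0.61 ± 0.14, edgeR adjusted p = 0.0389). Ccng1, cyclin G1, a p53 target, fell to 265, 259.7 and 325 CPM in the KO-labelled libraries, against 502, 747 and 724 CPM in the WT-labelled libraries (log2 fold change -1.22 ± 0.21, edgeR adjusted p = 0.0312). Wee1 and Pkmyt1, the kinases that hold Cdk1 inactive, had log2 fold changes of 0.53 ± 0.24 and 0.71 ± 0.20, neither past the threshold. Of 14 genes of the DREAM, MuvB and NF-Y complexes, 8 lay above 0, with a median log2 fold change of 0.20. At an unadjusted p below 0.05, 4 were higher and 2 lower, beside 18.2% and 20.3% of all genes. DESeq2 had 3 higher and 2 lower. At an edgeR adjusted p below 0.05, 0 rose and 2 fell (14.3%, beside 7.43% of all genes). Rbl2, the pocket protein p130 of DREAM, stood at 50.9, 50.4 and 48.2 CPM in the KO-labelled libraries, against 68.2, 79.6 and 87.7 CPM in the WT-labelled libraries (log2 fold change -0.66 ± 0.12, edgeR adjusted p = 0.0324), and Tfdp2, an E2F partner, had a log2 fold change of -0.46 ± 0.12 (edgeR adjusted p = 0.0468). Lin9, the MuvB subunit with the next smallest adjusted p, had one of 0.52 ± 0.17 (edgeR adjusted p = 0.0767).

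The basal keratinocyte sum and the sum of the mitotic genes were both lowest in WT replicates 2 and 3, but the libraries did not fall in the same order on both. Set against the basal keratinocyte sum, the 40 genes came to 10.9%, 10.6% and 11.9% in KO replicates 1, 2 and 3, against 12.4%, 13.2% and 16.5% in WT replicates 1, 2 and 3, so every KO-labelled value lay below every WT-labelled one. On mean log2 CPM, where each gene weighs alike, the labels were not separated, because WT replicate 1 lay close to KO replicates 2 and 3. The means of the 40 genes and of the basal genes were 4.857 and 9.295 in KO replicate 1, 4.94 and 9.02 in KO replicate 2 and 5.19 and 9.25 in KO replicate 3. In WT replicate 1 they were 4.94 and 9.03, in WT replicate 2 4.38 and 8.35, and in WT replicate 3 4.48 and 8.05. Mki67 alone came to 1.84%, 1.89% and 1.82% of the basal sum in the KO-labelled libraries, against 2.01%, 2.20% and 3.33% in the WT-labelled libraries. The 18 G1/S genes did otherwise, with 3.97%, 3.24% and 3.45% of the basal sum in the KO-labelled libraries, against 3.23%, 2.93% and 2.53% in the WT-labelled libraries. Of the 12 basal genes, 0 passed the edgeR test in either direction and 11 lay above 0 (median log2 fold change 0.68), with 6 higher and 1 lower at an unadjusted p below 0.05 and 5 higher and 1 lower by DESeq2. Of 12 suprabasal genes 4 rose and 0 fell (8 higher by DESeq2), and of 15 fast muscle genes 0 rose and 4 fell (12 lower by DESeq2), where 4.81% of all genes rose and 7.43% fell. DESeq2 called 12.1% of all genes higher and 15.6% lower. At an unadjusted edgeR p below 0.05, 18.2% of all genes were higher and 20.3% lower. With the basal mean as a covariate in the edgeR fit, the median log2 fold change of the 40 genes was 0.06, 27 of 40 lay above 0, and 0 were higher even at an unadjusted p below 0.05, where 477 of all 15903 genes were. With the fast muscle mean it was 0.22 and with sex 0.24, and 0 of the 40 genes passed at an adjusted p below 0.05 in either fit (0 and 2 were higher at an unadjusted p below 0.05, beside 1.50% and 10.5% of all genes). Of all genes 0.00% were higher in each of these 3 fits, which leave few degrees of freedom. The basal mean, the muscle mean and sex each vary with the label, so these fits cannot separate covariate from label.

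**Figure D4:**
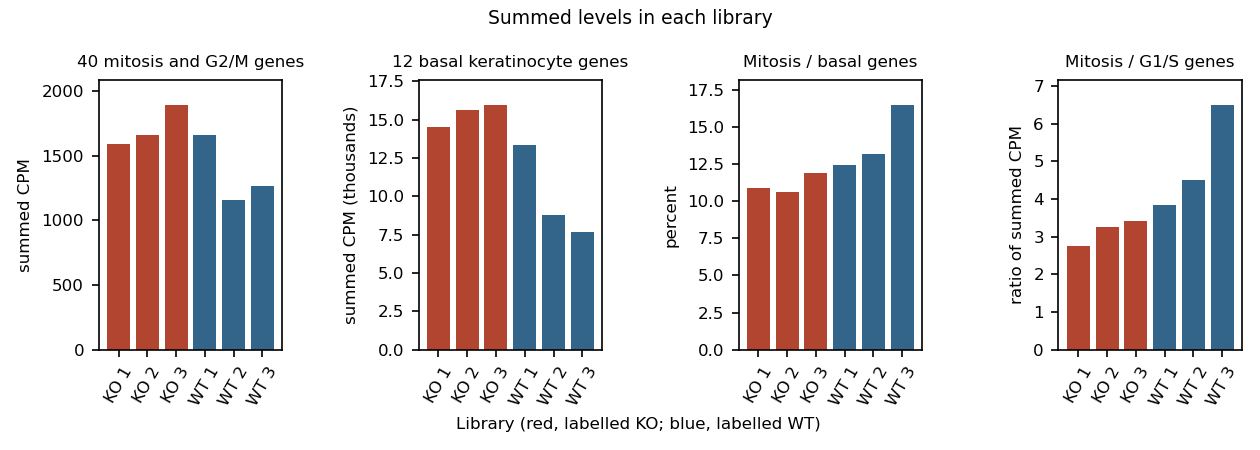
Summed CPM of the 40 genes and of 12 basal keratinocyte genes, their ratio in percent, and the ratio of the 40 genes to 18 G1/S genes, in each library; bars start at 0. The sum of WT replicate 1 lies within the range of the KO-labelled ones, while both ratios of sums are lower in all 3 KO-labelled libraries than in the WT-labelled ones. On mean log2 CPM the comparison with basal genes did not separate the labels.

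Other cells of the tongue that divide or accompany dividing cells also differed. The summed level of 11 T and NK cell genes was 21.9, 32.4 and 23.8 CPM in the KO-labelled libraries, against 19.6, 10.1 and 7.93 CPM in the WT-labelled ones; 1 of the 11 rose and 0 fell, where 4.81% of all genes rose and 7.43% fell. Of 10 myeloid genes 2 rose and 0 fell, of 9 fibroblast genes 0 rose and 3 fell, of 8 endothelial genes 0 rose and 3 fell, and of 8 satellite cell and myogenic genes 0 rose and 2 fell. DESeq2 had 4 T and NK cell and 3 myeloid genes higher, and 5 fibroblast, 7 endothelial and 4 satellite cell genes lower. It called 12.1% of all genes higher and 15.6% lower. With library size alone 0 myeloid and 0 fibroblast genes passed. Of 6 tested B and plasma cell genes 0 passed in either direction, by edgeR at an adjusted or unadjusted p below 0.05 or by DESeq2. The part of these cells in the mitotic transcripts was not tested.

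Leaving out 1 library decided how many of the 40 genes passed. Without WT replicate 1, 23 of the 40 genes were higher at an edgeR adjusted p below 0.05, beside 17.9% of all genes, and the median log2 fold change was 0.61. Leaving out any other single library left 0 genes past the threshold, with medians of 0.43 without KO replicate 1, 0.43 without KO replicate 2, 0.27 without KO replicate 3, 0.25 without WT replicate 2 and 0.33 without WT replicate 3. At an unadjusted p below 0.05 these 5 fits had 13, 10, 3, 2 and 6 of the 40 genes higher and 0 lower, beside 12.0%, 12.3%, 15.6%, 10.2% and 12.9% of all genes higher. At an adjusted p 0.0251%, 0.00%, 0.306%, 0.00% and 1.81% of all genes were higher. The 23 genes included Cdk1, Ccna2, Ccnb1, Foxm1, Mybl2, Melk, Bub1, Birc5, Cdc20 and Top2a, but not Mki67, Plk1, Aurka, Ccnb2, Cenpa or Cenpf. Of the 85 other mitotic genes 57 were higher without WT replicate 1 and 0 in each other leave-one-out fit. The 10 genes said above to have risen or fallen, from Trip13 to Tfdp2, passed without WT replicate 1 and did not pass without KO replicate 1, KO replicate 2, KO replicate 3 or WT replicate 2. Without WT replicate 3, Ccng1, Plk3 and Rbl2 passed and the other 7 did not. With library size alone only Ccng1 and Plk3 of the 10 passed. The suprabasal, fast muscle, T and NK cell, myeloid, fibroblast, endothelial and satellite cell lists had 0 genes past the threshold without KO replicate 1, KO replicate 2, KO replicate 3 or WT replicate 2. Without WT replicate 1 these lists had 7 suprabasal, 9 T and NK cell and 4 myeloid genes higher, and 12 fast muscle, 5 fibroblast, 7 endothelial and 3 satellite cell genes lower. Of all genes 17.9% were higher and 18.1% lower in that fit. Without WT replicate 3 they had 2 suprabasal and 1 T and NK cell gene higher, 1 fibroblast and 1 endothelial gene lower, and no call in the other lists. Of all genes 1.81% were then higher and 2.69% lower. Of the 18 G1/S genes 17 were higher without WT replicate 1, 1 without WT replicate 3 and 0 in each other leave-one-out fit.

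**Figure D5:**
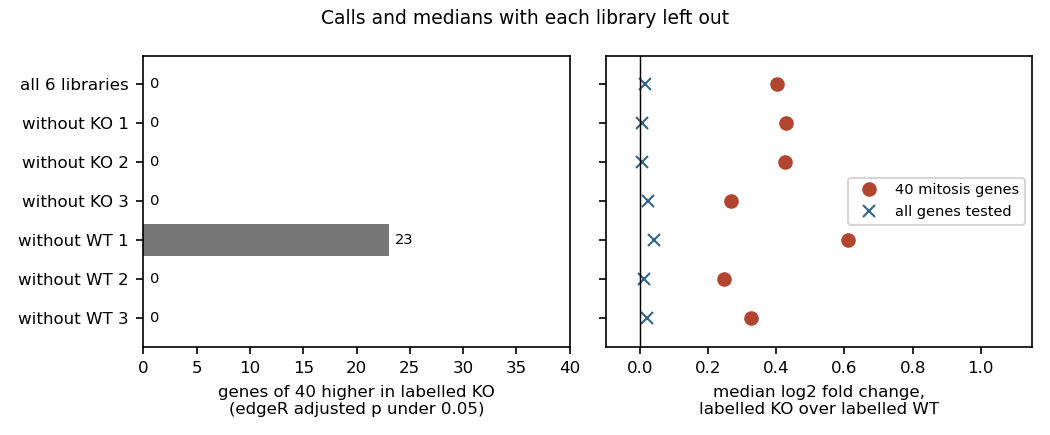
Number of the 40 genes higher in KO-labelled libraries at an edgeR adjusted p below 0.05 and median log2 fold change of the 40 genes and of all genes tested, with all 6 libraries and with each library left out in turn. The count is 23 without WT replicate 1 and 0 in every other fit shown.

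The authors' deposited DESeq2 tables, whose fold changes run WT over KO and are given here with the sign turned, also differed with the libraries used. In the authors' deposited table of all 6 libraries, 7 of the 40 genes were higher in the KO-labelled group at an adjusted p below 0.05, beside 12.4% of all genes; they were Cdk1, Mybl2, Melk, Bub1, Birc5, Cdca8 and Ndc80. The authors' deposited table without KO replicate 3 and WT replicate 2 had 0 of the 40 genes higher, beside 3.61% of all genes, and 30 of 40 above 0. The authors' deposited table without KO replicate 3 and WT replicate 1 had 16 higher, beside 16.3% of all genes. The log2 fold change of Mybl2 in these authors' deposited tables was 1.00, 0.78 and 1.47, and that of Cdk1 was 0.52, 0.36 and 0.66. The 3 tables share libraries and are not independent of each other.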

How the data were processed

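RNA of 6 tongue samples was made into Illumina TruSeq libraries, and groups and replicate numbers come from the sample titles. The labels call the 3 samples of a group replicates without saying that each is another animal; both sexes occur among the KO-labelled libraries, so these are not all from the same mouse, while for the WT-labelled libraries it is not given whether their spread is between animals. The authors deposited raw read counts per gene, whole numbers summing to 29543352 to 51520707 per library, in 1 table of 6 and 2 tables of 4 libraries with equal counts. Beside them stand, per the file headers, the authors' DESeq2 mean normalised count (a signal of counts over size factors), log2 fold change with its error on the log2 scale, test statistic (a score), p-value and adjusted p-value. HTSeq and DESeq2 are the tools, and mm10 and hg19 the builds, named per the submitters' processing notes. The sources used here do not give the aligner, the annotation or whether strand was used, so overlapping and antisense genes may share reads. The deposited symbols are mouse symbols.

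The test was that of edgeR 4.0.16 (R 4.3.3). Its filterByExpr (10 counts, scaled to depth, in at least 3 libraries, and 15 in all) left 15903 of 24067 genes, and 5 symbols occurring a second time were kept as separate genes. Library sizes were scaled by TMM (factors 0.866 to 1.09). A robust quasi-likelihood model with group as its term was fitted to all 6 libraries (common biological coefficient of variation 20.7%), and p-values were adjusted by Benjamini-Hochberg over the 15903 genes and called below 0.05. A standard error is the absolute log2 fold change over the square root of the F statistic, and intervals are at 95%. List means used as covariates and the figure of single libraries used log2 CPM. The scripts were tested on simulated data. DESeq2 1.42.0 and limma 3.58.1 served as alternatives, with other scalings, filters, covariates and library sets.

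Members and gene lists were chosen with earlier results of these data known. Values in every library are given for 14 widely used markers and, within each role, for the genes with the smallest and the largest adjusted p. Of the other cell cycle lists, up to 3 genes with the smallest adjusted p and the one with the largest fold change are named. Genes of the cell type lists are counted or summed and not named. Plk2, Wee1, Pkmyt1, Cenpf, Pttg1, Ckap5 and Cenpp were named after their values were seen. Exon lengths are from GENCODE M21 (GRCm38), and gene positions and promoters are from RefSeq (GRCm38.p6).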

Additional observations from a re-analysis of the deposited data

How the results depend on the processing

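None of the 40 genes was lower in any alternative run. With no low-count filter 1 was higher, with limma-voom 1, with DESeq2 7, and with KO replicates 1 and 2 against WT replicates 2 and 3 it was 15 (14.9% of all genes). Of the other mitotic genes, where 1 was higher and 0 lower, 0 were higher with library size alone, with KO replicates 1 and 2 against WT replicates 1 and 3, and with the basal keratinocyte mean, the fast muscle mean or sex as a covariate, 3 with no filter, 3 with a minimum of 1 CPM in 3 libraries, 5 with limma-voom, 21 with DESeq2 and 36 with KO replicates 1 and 2 against WT replicates 2 and 3; in DESeq2 and the last of these 1 was lower. Whether replicate numbers pair the samples cannot be settled with 3 libraries a group. Correlations of deviations were 0.12, −0.16 and 0.19, and 3 of 6 libraries correlated best with their own number. With the replicate block 3 of the 40 genes (Cdk1, Mybl2 and Melk) and 14 other mitotic genes were higher and 1 other mitotic gene lower. Of all genes 10.7% were higher with the block, beside 4.81% without it. The median log2 fold change of the 40 genes was 0.15 with KO replicates 1 and 2 against WT replicates 1 and 3 and 0.062 with the basal covariate. Library size alone raised the median of all genes to 0.18 and that of the 40 genes to 0.55, so their distance was 0.37, beside 0.39 with TMM. Leaving out 1 library gave 0 to 23 of the 40 genes higher, a median of 0.25 to 0.61, 0 to 57 other mitotic genes higher and 0 to 1 lower, and 0.17 to 0.40 for Elavl1. With the basal, muscle or sex covariate, or KO replicates 1 and 2 against WT replicates 1 and 3, 0 of the 10 genes of other lists said to have risen or fallen passed. The causes were not tested.

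Genes that crossed 0 were not past the threshold on either side. With KO replicates 1 and 2 against WT replicates 1 and 3 the log2 fold changes were −0.066 (Ccnb1), −0.20 (Ccnb2), −0.038 (Cdc25b), −0.077 (Plk1), −0.23 (Cenpa), −0.055 (Hmmr), −0.075 (Kif2c), −0.10 (Kif23) and −0.10 (Ube2c). With the basal covariate they were −0.33 (Ccnb1), −0.11 (Ccnb2), −0.19 (Cdc25b), −0.052 (Plk1), −0.022 (Bub1b), −0.16 (Ttk), −0.16 (Cenpa), 0.027 (Cenpf), −0.09 (Nuf2), −0.21 (Hmmr), −0.11 (Anln), −0.30 (Ube2c), −0.033 (Cdca3) and −0.16 (Top2a). The muscle covariate gave −0.011 (Cdc25b), 0.23 (Cenpf), −0.11 (Nuf2), −0.036 (Cdca3) and −0.23 (Top2a), and sex −0.012 (Ccnb1), −0.25 (Ccnb2), −0.20 (Cdc25b), −0.27 (Cenpa), −0.13 (Kif23) and −0.20 (Ube2c). Cenpf was at 0.078 with library size alone. Leaving out 1 library gave −0.079 to 0.19 for Ccnb2, −0.001 to 0.29 for Cdc25b, −0.11 to 0.23 for Cenpa, −0.25 to 0.093 for Cenpf and −0.017 to 0.46 for Ube2c. The tests rest on 3 libraries a group and 99 to 15414 counts per gene and library; depth was not varied.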

Other observations

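Only 3 of the 85 other mitotic genes lay below 0, and they are named for that reason. Pttg1, securin, the inhibitor of separase that the anaphase-promoting complex destroys, stood at 44.8, 57.9 and 60.6 CPM in the KO-labelled libraries, against 63.9, 84.0 and 108.5 CPM in the WT-labelled libraries. All KO-labelled values were below all WT-labelled ones, opposite to Espl1, separase itself, and the log2 fold change was −0.65 ± 0.21 (edgeR adjusted p = 0.0679). Ckap5, a microtubule polymerase, had 118.7, 106.9 and 111.3 CPM in the KO-labelled libraries, against 123, 124 and 130.7 CPM in the WT-labelled libraries (log2 fold change −0.17 ± 0.11, edgeR adjusted p = 0.279). Cenpp, a centromere protein, had 2.35, 3.57 and 2.72 CPM in the KO-labelled libraries, against 3.24, 3.59 and 2.70 CPM in the WT-labelled libraries (−0.15 ± 0.24, edgeR adjusted p = 0.663).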
